A study of Arabidopsis thaliana with 30 samples.

Results

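The 68 genes described here were higher in wild type Arabidopsis seedlings after 3 h of high light and lower in the flu mutant than in wild type at that time. They were chosen on group means of 3 arrays on the log2 scale. A gene entered if wild type at 3 h exceeded wild type at 0 h by at least 1, a 2-fold difference of signal, and if flu at 3 h lay at least 0.75 below wild type at 3 h. A probe set is a group of short probes that reports 1 transcript or a few. Of 22746 probe sets other than controls, 13513 were matched to exactly 1 gene, and 74 of these passed. Leaving out 6 named genes (EXPB3, WRKY53, TBL26, LHCB4.3, AT2G27420 and AT2G23910) left the 68. A match to exactly 1 gene means here that the annotation gave the probe set a single gene symbol. Another 74 probe sets, with no symbol or several, passed the same thresholds and are not named. Whether several symbols stood for several genes or for 1 was not checked. Wild type at both times and flu at 3 h chose the genes. Every comparison with a mean from those arrays is therefore a description with no test.

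The flu line lacks a working FLU protein, which holds back chlorophyll synthesis in the dark. Its seedlings then gather protochlorophyllide, a pigment that passes energy to oxygen in light and forms singlet oxygen inside the plastid. Singlet oxygen is known to alter nuclear transcription through signals that leave the plastid. Strong light by itself brings wild type seedlings to raise genes of photoprotection, sugar handling and growth. MBS1 and MBS2 are small zinc-finger proteins that take part in the response to singlet oxygen.

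Affymetrix ATH1 arrays, 30 in all, measured messenger RNA in 10 groups of 3 biological replicates, which were 5 lines at 2 times. All lines were in the Col-0 strain. They were flu, mbs1-1 with a disrupted MBS1, RNAi-MBS2/mbs1-1 with RNA interference against MBS2 added to mbs1-1, 35S:MBS1 with MBS1 driven by the viral 35S promoter, and wild type (WT). Seedlings stood on agar with sucrose and were 12 days old. They had spent 7 days in continuous light of 10 µE per square metre and second, and were taken as whole plants minus the root. The 3 h groups received 1000 µE per square metre and second for 3 h after 3 h of darkness, and the 0 h groups received no high light. Whether the 0 h seedlings were taken before or after those 3 h of darkness is not given in the sources used here. A difference between 3 h and 0 h joins the return of light and its strength, and darkness too if they were taken before it, and these cannot be told apart. Below, RNAi-MBS2/mbs1-1 is called the RNAi line, and this line, mbs1-1 and 35S:MBS1 together are called the MBS1-altered lines. Whether each transgenic line was 1 transformant is not given in the sources used here.

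Array means lay between 6.70 and 6.77 on the log2 scale, apart from mbs1-1 3 h replicate 1 at 6.96 and WT 0 h replicate 1 at 6.88. Arrays of 1 group correlated at 0.983 to 0.996, and no pair of arrays was identical. Precision is limited by having 3 arrays in each group. Differences are given ± limma's SE, with n = 3 arrays per group. A listed gene is called measured if a probe set was matched to it alone, by a single gene symbol. Of the 8 leaf mesophyll markers listed, 1 was measured, RCA, the activase of Rubisco. Its signal was 11.87 to 12.23 in flu at 3 h and 12.67 to 12.75 in WT at 3 h. At 0 h the RCA mean was 12.76 in flu and 12.85 in WT. The root list had 2 of 6 measured, with the root hair gene EXPA7 at 2.63 to 3.32 over all arrays and PYK10 at 11.04 to 12.49. The guard cell list had 1 of 3 measured, FAMA, at 7.45 to 7.67 in flu and 7.09 to 7.37 in WT at 3 h. At 0 h the FAMA mean was 8.53 in flu and 8.51 in WT. MBS1, MBS2 and FLU had no probe set matched to them alone by the single-symbol match. Probe sets with several symbols were not searched for them, so the line labels were not checked on the altered genes. No marker listed for epidermis, vasculature, shoot meristem or seed was measured in this sense, and probe sets with several symbols were not searched for them. In whole shoots, fewer cells of a type and less RNA per cell cannot be told apart, and the part of cell makeup in the results below was not tested. For the actin control probe sets, the signal at the 3′ end exceeded that at the 5′ end by 6.93 to 6.98 in flu at 3 h and 6.61 to 6.82 in WT at 3 h, and its part was not tested either.

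Across the 68 genes, flu at 3 h lay below WT at 3 h by a median of 1.00 on the log2 scale, where the values that chose them ran from -2.70 to -0.75. The 3 flu arrays lay below the 3 WT arrays without overlap in 60 of the 68, against 21.4% of all probe sets, a share that the choice of genes sets. The other 8 were SWEET13, AT3G12910, AT1G72920, DFR, AT5G59670, AT2G18210, AT1G51850 and AT1G73620. In WT the 3 h minus 0 h difference had a median of 1.54 and reached 4.47. The same difference in flu had a median of 0.71, beside -0.05 over all probe sets. By the median gene, the flu difference was 44.9% of the WT difference on the log2 scale, a value that the choice of genes also shapes.

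The size of the flu response varied among the genes. The flu difference of 3 h from 0 h was at least 1 in 23 genes, where 11% of all probe sets reached that size. It lay between 0 and 1 in 37 genes and below 0 in 8, where 12325 of all 22746 probe sets lay below 0. Those 8 were -0.64 for AT5G18840, -0.59 for TRY, -0.54 for AT4G16563, -0.22 for AT1G80130, -0.20 for CRR42, -0.16 for AT4G28780, -0.11 for AT1G74070 and -0.05 for AT4G24810. At 3 h the flu arrays lay above the flu 0 h arrays without overlap in 39 genes, against 23.8% of all probe sets. They lay below them in 1, AT4G16563, against 28%. Flu at 3 h was among the groups that chose the genes, so these counts are not independent of the choice. In 9 genes the flu mean at 3 h was below the WT mean at 0 h, led by AT5G18840 at -1.39 and AT4G16563 at -1.10.

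**Figure D1:**
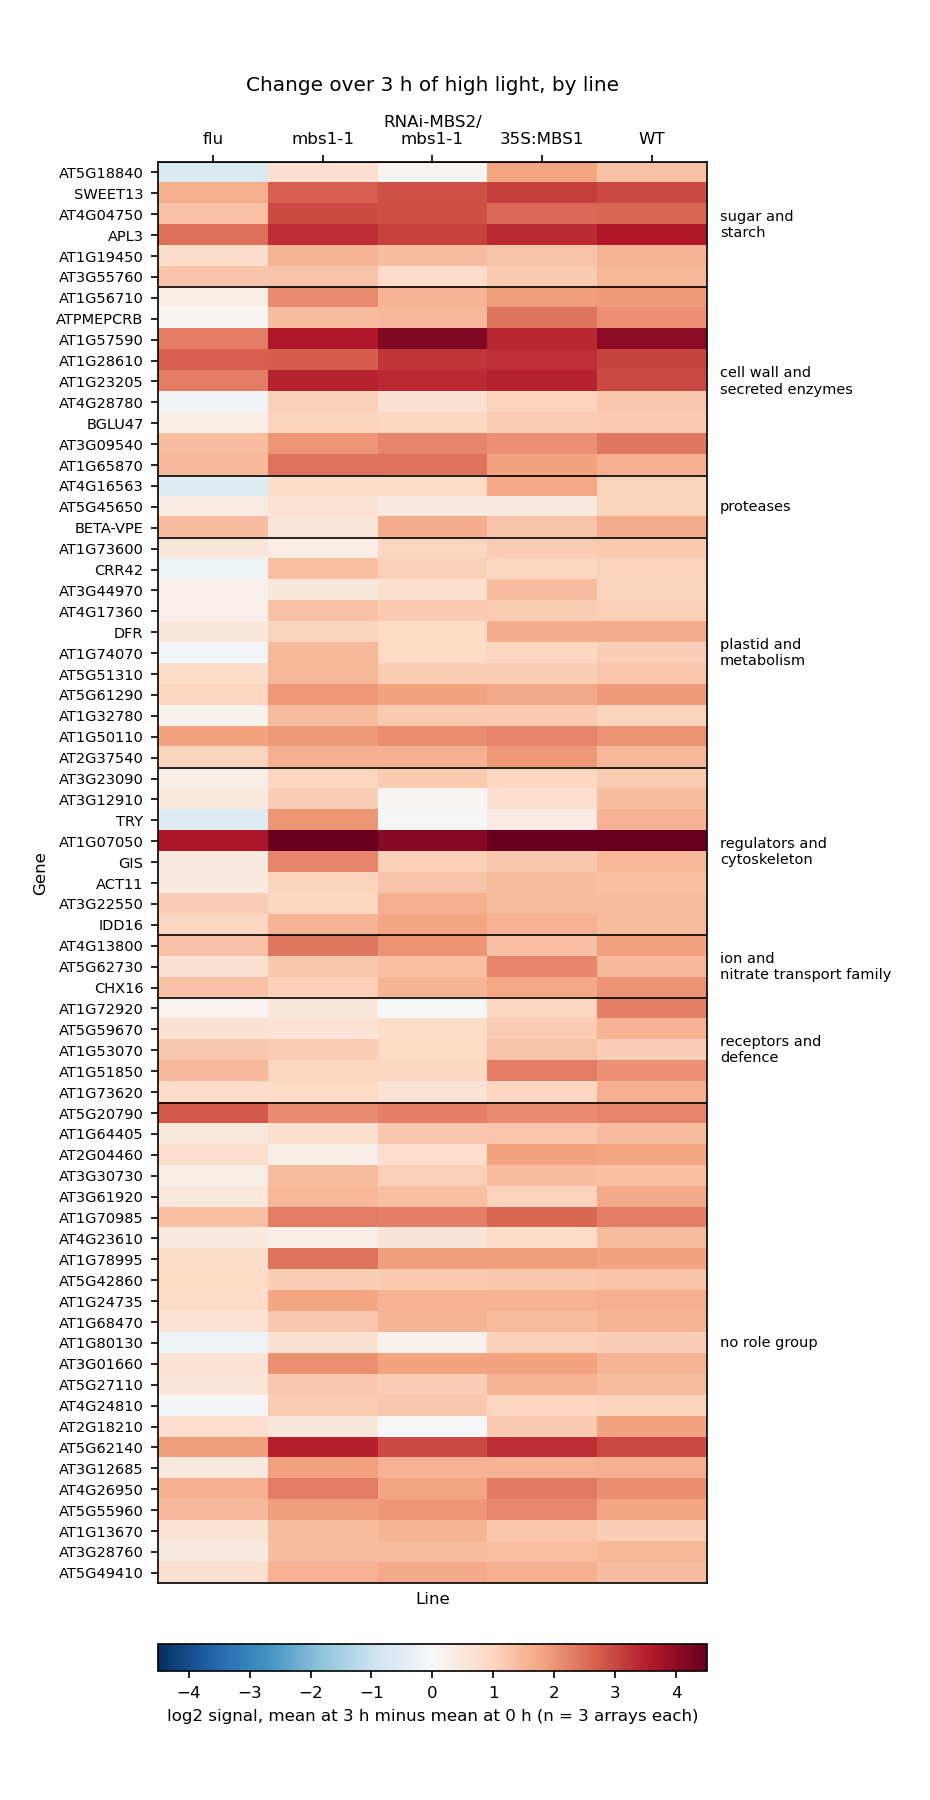
Log2 signal at 3 h minus 0 h for each of the 68 genes (rows, by role group) in each line (columns), from means of 3 arrays. The flu column is paler than the other columns in most rows, with 8 genes below 0, while AT1G07050 is dark in every line.

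The MBS1-altered lines shared no array with the choice of the genes, so their own responses could be tested. The test was limma's, a linear model for arrays, with p-values adjusted over all probe sets and a threshold of 0.05. By 3 h 59 of the 68 had risen in mbs1-1, against 25.9% of all probe sets. In the RNAi line 55 rose, against 21.2%, and in 35S:MBS1 65 rose, against 22%. None of the 68 fell in any of the 3 lines, where 18.8%, 24.5% and 25% of all probe sets fell in mbs1-1, the RNAi line and 35S:MBS1. The 1 difference below 0 was that of AT1G72920 in the RNAi line, at -0.03 ± 0.43, whose sign turned in 2 of the alternative settings. TRY in that line, at 0.00 ± 0.34, changed sign in 4. All 3 lines raised 53 of the genes, against 17.1% of all probe sets, and 40 were higher by at least 1 in each line, against 6.27%. The median responses were 1.42 in mbs1-1, 1.36 in the RNAi line and 1.44 in 35S:MBS1, beside 0.10, -0.10 and -0.08 over all probe sets. AT1G72920, a protein with a TIR domain as found in immune receptors, was the 1 gene that passed in none of the 3 lines, as 69.8% of all probe sets did.

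The largest of these rises belonged to AT1G07050, a protein with a CCT motif as found in regulators of flowering and light responses. It rose by 4.47 ± 0.19 in mbs1-1 (limma adjusted p = 4.61e-16), a 22.2-fold change, and by 4.48 ± 0.19 in 35S:MBS1 (adjusted p = 4.04e-16). AT1G57590, a pectin acetylesterase that removes acetyl groups from wall pectin, had the largest rise in the RNAi line at 4.17 ± 0.26 (adjusted p = 1.49e-12). AT1G23205, of the family of invertase and pectin methylesterase inhibitors, and APL3 were among the 5 largest rises in each of the 3 lines. AT1G23205 rose by 3.46, 3.35 and 3.48 in mbs1-1, the RNAi line and 35S:MBS1. AT5G62140 was among the 5 largest in mbs1-1 at 3.50 ± 0.16 and in 35S:MBS1 at 3.31 ± 0.16, and AT1G28610 in the RNAi line at 3.22 ± 0.24.

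The genes that did not pass differed between the lines. In 35S:MBS1 they were TRY at 0.38 ± 0.34, AT3G12910 at 0.75 ± 0.38 and AT1G72920 at 0.96 ± 0.43. The RNAi line had 13 such genes, among them TRY at 0.00 ± 0.34, AT3G12910 at 0.04 ± 0.38, DFR at 0.91 ± 0.38 and AT5G18840 at 0.14 ± 0.32. The 9 in mbs1-1 included AT1G73600 at 0.32 ± 0.30, BETA-VPE at 0.55 ± 0.38 and AT5G18840 at 0.77 ± 0.32. Passing in one line and not in another does not show a difference between the lines, so the differences were tested directly.

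No gene of the 68 passed in a direct test between MBS1-altered lines. At 3 h, 35S:MBS1 minus mbs1-1 gave 0 calls, against 0.0264% of all probe sets higher and 0.0967% lower. The RNAi line minus mbs1-1 gave 0, against 0.00879% higher and 0% lower. 35S:MBS1 minus the RNAi line was not tested at 3 h. At an unadjusted p under 0.05, 7 of the 68 passed in the first of these, against 12.7% of all probe sets, and 5 in the second, against 10.4%. The difference between the responses of 2 lines also gave 0 calls for each pair after adjustment. Over all probe sets 0.0132% were lower for 35S:MBS1 against mbs1-1 and 0% were called otherwise. With shares this small over all probe sets, the lack of calls among the 68 is not a result about these genes. Unadjusted, 10 genes passed for 35S:MBS1 against mbs1-1 (15.6% of all probe sets), 6 for the RNAi line against mbs1-1 (13.6%) and 5 for 35S:MBS1 against the RNAi line (3.79%). Among the 68, the difference at 3 h between 35S:MBS1 and mbs1-1 ran from -0.77 to 0.78. Over all probe sets 21.4% of the 28 calls between 35S:MBS1 and mbs1-1 at 3 h were higher, a share that became 42.1% of 19 after quantile normalization and 50% of 14 after centring each array on its median. Without the brighter mbs1-1 3 h replicate 1 the share turned to 77.8% of 9 calls, and without both brighter arrays to 71.4% of 7, so no direction is given for these calls. Leaving out any of the other arrays compared gave shares between 9.46% of 74 calls, without mbs1-1 3 h replicate 3, and 60% of 5, without 35S:MBS1 3 h replicate 1.

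At 3 h the MBS1-altered lines lay near WT in most of these genes, as a description. Their median differences from WT were -0.08 in mbs1-1, -0.13 in the RNAi line and -0.09 in 35S:MBS1. Over all probe sets these medians were 0.08, -0.03 and -0.02. A difference of -0.75 or lower, as used to choose the genes in flu, was seen in 6 genes in mbs1-1, 7 in the RNAi line and 5 in 35S:MBS1. AT1G72920 and AT2G18210 were in that range in all 3 lines. High WT signal at 3 h was part of the choice of genes, which by itself can put other lines below WT. The share of all probe sets in that range was not counted, so these counts are not a result about the MBS1-altered lines. The flu mean at 3 h was below the mean of the 3 lines in 66 genes, where 13613 of all 22746 probe sets were. It was below that mean by at least 0.75 in 46 genes. All 3 flu arrays lay below all 9 arrays of the MBS1-altered lines in 47 genes, where 11.8% of all probe sets did. Low flu signal at 3 h was part of the choice of genes, so these counts of flu are shaped by it. The mean signal over the 68 genes was 6.77 to 6.95 in the 3 flu arrays at 3 h, 7.60 to 7.94 in the 9 MBS1-altered arrays and 7.94 to 7.98 in the 3 WT arrays.

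**Figure D2:**
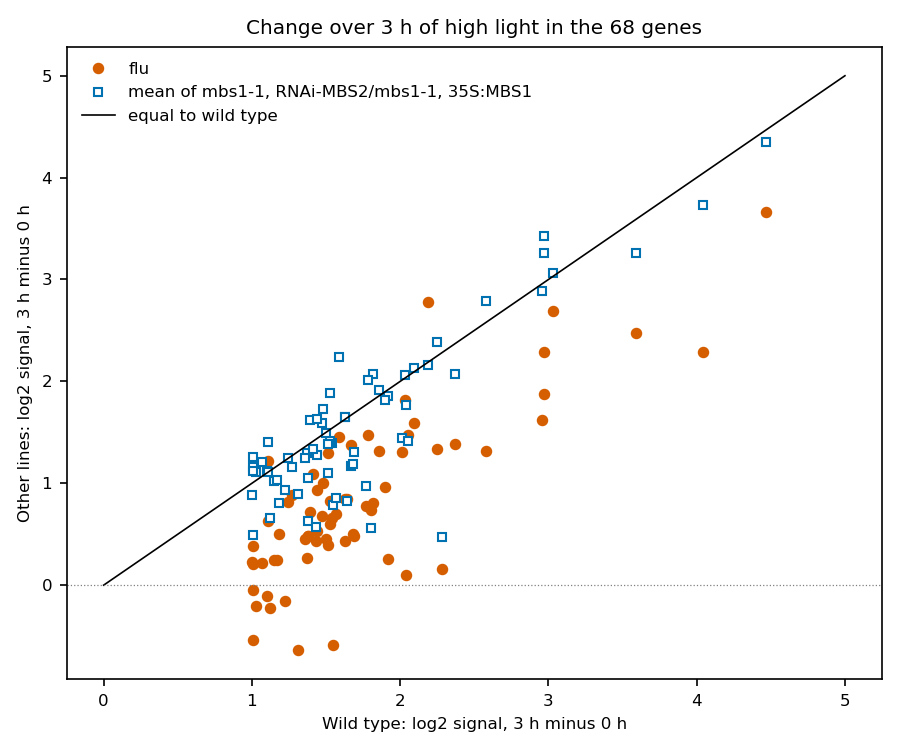
Each gene's 3 h minus 0 h difference in flu (filled circles) and in the mean of the 3 MBS1-altered lines (open squares), in log2 units, against that in WT. All flu circles but those of AT5G20790 and AT1G53070 lie below the line of equality, and the squares spread around it. The WT axis was used to choose the genes.

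Sugar transport and starch had 6 members, and APL3 and SWEET13 had the highest WT responses among them. AT5G18840, AT4G04750 and AT1G19450 belong to the ERD6-like sugar transporters, some of which move sugars across the vacuole membrane. SWEET13 (AT5G50800) exports sucrose from cells, APL3 (AT4G39210) is a large subunit of ADP-glucose pyrophosphorylase, which makes the substrate of starch synthesis, and AT3G55760 (LESV) binds starch in plastids. In mbs1-1 5 of the 6 rose, in the RNAi line 5 and in 35S:MBS1 all 6. Of all probe sets, 25.9%, 21.2% and 22% rose in these lines. AT5G18840 was the member that did not pass in mbs1-1 and the RNAi line.

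AT5G18840 had the largest gap of all 68 genes. Its signal at 3 h was 3.37, 3.06 and 3.67 in flu and 5.90, 6.74 and 5.55 in WT, and from 5.09 to 6.44 with a median of 5.80 over the 9 MBS1-altered arrays. At 0 h it was 4.0, 3.65 and 4.37 in flu and 4.27, 5.08 and 4.92 in WT. All 3 flu arrays at 3 h were below every array of the other lines at 3 h, and at -2.70 ± 0.32 flu lay 6.48-fold below WT. At 0 h the third flu array lay within the WT range and the other two below it.

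SWEET13 read 5.71, 6.11 and 5.67 in flu at 3 h and 7.63, 5.93 and 7.93 in WT at 3 h. The second WT array lay inside the flu range, so the groups overlapped, and the 9 MBS1-altered arrays ran from 6.22 to 7.25 with a median of 6.97. At 0 h the signals were 4.38, 3.89 and 4.35 in flu and 4.79, 4.07 and 3.75 in WT, close together. AT4G04750 read 7.06, 7.34 and 6.85 in flu at 3 h and 8.27, 8.09 and 8.19 in WT at 3 h, with no overlap, and 5.74, 5.37 and 6.19 in flu and 5.62, 5.67 and 5.53 in WT at 0 h.

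APL3 reached 8.75, 8.13 and 7.64 in flu at 3 h and 9.34, 9.07 and 9.41 in WT at 3 h. At 0 h it read 5.77, 5.47 and 5.88 in flu and 5.54, 5.68 and 5.83 in WT. The 0 h arrays of both lines overlapped. At 3 h flu was higher than its own 0 h level by 2.47 ± 0.22 and WT by 3.59 ± 0.22, and the 9 MBS1-altered arrays ran from 8.56 to 9.28 with a median of 9.13. AT1G19450 and AT3G55760 had smaller gaps of -0.86 and -0.76.

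The cell wall and secreted enzymes had 9 members, all of which rose in each MBS1-altered line. Of all probe sets, 25.9% rose in mbs1-1, 21.2% in the RNAi line and 22% in 35S:MBS1. AT1G56710 and AT3G09540 belong to pectin lyase-like families, and ATPMEPCRB (AT4G02330) is a pectin methylesterase. AT1G57590 and AT1G23205 were introduced above. AT1G28610 and AT4G28780 are GDSL-type lipases, AT1G65870 is a dirigent-like protein and BGLU47 (AT4G21760) a beta-glucosidase. The group's median response was 1.39 in flu, 2.14 in mbs1-1, 2.19 in the RNAi line, 2.05 in 35S:MBS1 and 2.04 in WT.

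AT1G56710 had signals of 4.29, 4.42 and 4.44 in flu at 3 h and 6.31, 6.36 and 6.40 in WT at 3 h. Its 0 h signals were 3.72, 3.96 and 4.70 in flu and 4.34, 4.87 and 4.10 in WT. The flu arrays at 3 h thus fell within the range of the 0 h arrays, while the 9 MBS1-altered arrays at 3 h ran from 5.59 to 7.08 with a median of 6.25. ATPMEPCRB likewise had a flu level at 3 h that overlapped its 0 h level. Its signals were 6.42, 7.12 and 6.96 in flu and 8.82, 9.10 and 8.45 in WT at 3 h, and 6.69, 7.12 and 6.39 in flu and 6.53, 6.44 and 7.27 in WT at 0 h. In the MBS1-altered lines ATPMEPCRB rose by 1.42 ± 0.35 in mbs1-1, 1.47 ± 0.35 in the RNAi line and 2.42 ± 0.35 in 35S:MBS1 (adjusted p = 0.0016, 0.00116 and 2.16e-06).

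AT1G57590 had a large response in flu too, of 2.29 ± 0.26. Signals were 6.65, 5.84 and 6.19 in flu at 3 h and 7.67, 7.71 and 7.49 in WT at 3 h. They were 4.73, 3.50 and 3.58 in flu at 0 h and 3.54, 3.94 and 3.28 in WT at 0 h. Flu at 3 h stood between the 0 h arrays and the WT arrays at 3 h, with no overlap on either side, and the WT difference between the times was 16.4-fold. The 9 MBS1-altered arrays at 3 h ran from 6.87 to 8.06 with a median of 7.32, all above the flu arrays. AT1G28610 was similar, with 6.41, 6.59 and 6.12 in flu and 7.41, 7.43 and 7.51 in WT at 3 h, 4.06, 4.01 and 2.99 in flu and 4.55, 4.13 and 4.59 in WT at 0 h. AT1G23205 read 9.40, 9.80 and 8.60 in flu and 10.04, 10.24 and 10.24 in WT at 3 h. Its 0 h signals were 7.44, 7.00 and 6.48 in flu and 7.34, 7.17 and 7.11 in WT. In these 2 genes flu was lower than WT at 3 h, and was higher at 3 h than at 0 h by 2.69 for AT1G28610 and 2.29 for AT1G23205. AT4G28780 differed from them, with a flu response of -0.16 ± 0.19 beside 1.22 ± 0.19 in WT.

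**Figure D3:**
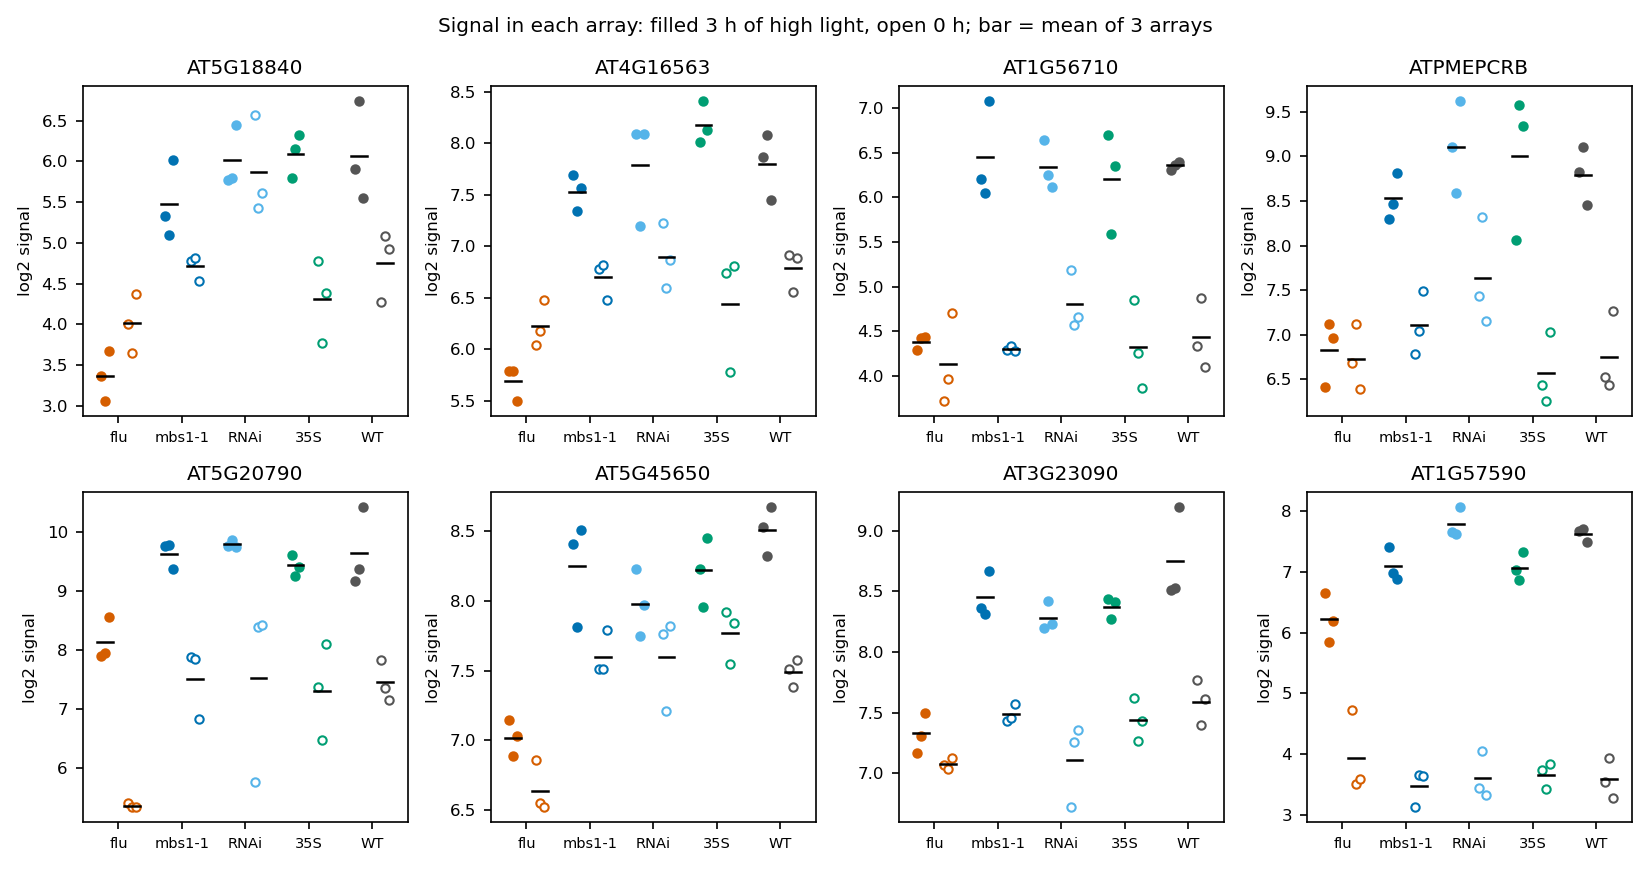
Log2 signal in each array for the 8 genes with the largest gap between flu and WT at 3 h, by line, with 3 h filled, 0 h open and a bar at the mean of 3 arrays. The 3 filled flu points lie below all filled points of the other 4 lines in each of these genes. Each panel has its own axis, which does not start at 0.

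The 3 proteases were AT4G16563 of the aspartyl type, AT5G45650 of the subtilase family and BETA-VPE (AT1G62710), a vacuolar processing enzyme that matures seed and vacuole proteins. AT4G16563 had 5.79, 5.79 and 5.50 in flu at 3 h and 7.87, 8.08 and 7.45 in WT at 3 h. At 0 h it had 6.04, 6.18 and 6.48 in flu and 6.92, 6.56 and 6.89 in WT. Every flu array at 3 h was below every flu array at 0 h, the reverse of WT, where every 3 h array was above every 0 h array. The MBS1-altered lines went the way of WT, with rises of 0.84 ± 0.24 in mbs1-1, 0.89 ± 0.24 in the RNAi line and 1.74 ± 0.24 in 35S:MBS1 (adjusted p = 0.00606, 0.00365 and 1.25e-06).

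AT5G45650 was low in flu at both times. Its signals were 7.15, 6.89 and 7.03 in flu and 8.53, 8.32 and 8.67 in WT at 3 h, and 6.86, 6.55 and 6.52 in flu and 7.51, 7.38 and 7.58 in WT at 0 h. No flu array reached the lowest WT array at either time. BETA-VPE read 6.66, 6.31 and 5.53 in flu at 3 h and 7.35, 7.18 and 7.77 in WT at 3 h. At 0 h BETA-VPE read 5.43, 4.82 and 4.10 in flu and 6.02, 5.58 and 5.68 in WT. It was lower in flu at both times without overlap, and the spread of the flu arrays was wide.

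The plastid and metabolism group held 11 members, of which 10 rose in mbs1-1, 10 in the RNAi line and 11 in 35S:MBS1. The shares of all probe sets that rose were 25.9%, 21.2% and 22%. CRR42 (AT5G20935) helps to assemble the NDH complex of cyclic electron flow, and AT1G74070 is a cyclophilin-type protein. Both had differences near 0 in flu between the times. CRR42 read 8.96, 8.83 and 8.48 in flu and 9.99, 10.10 and 10.31 in WT at 3 h, and 9.23, 8.93 and 8.72 in flu and 9.16, 9.09 and 9.05 in WT at 0 h. Its 3 h minus 0 h difference was -0.20 ± 0.15 in flu and 1.03 ± 0.15 in WT. AT1G74070 differed between 3 h and 0 h by -0.11 ± 0.15 in flu and 1.10 ± 0.15 in WT.

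AT4G17360, a formyltetrahydrofolate deformylase of one-carbon metabolism, read 8.20, 8.36 and 8.17 in flu and 9.23, 9.38 and 9.39 in WT at 3 h. At 0 h the gene read 8.15, 7.86 and 8.08 in flu and 8.27, 8.32 and 8.19 in WT. Its flu arrays at 3 h overlapped the WT arrays at 0 h. AT1G73600, a member of the phosphoethanolamine methyltransferase family that supplies choline for membrane lipids, was among the 9 genes that did not pass in mbs1-1. It had 10.22, 9.87 and 10.08 in flu and 11.57, 11.26 and 11.52 in WT at 3 h, and 10.09, 9.56 and 9.02 in flu and 10.37, 9.58 and 10.85 in WT at 0 h. Flu was below WT at 3 h in every array, while the 0 h arrays overlapped.

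AT3G44970, a cytochrome P450, read 4.5, 4.85 and 4.70 in flu and 6.11, 5.89 and 5.47 in WT at 3 h, with 4.58, 4.51 and 4.28 in flu and 5.05, 4.59 and 4.81 in WT at 0 h. These are dim signals, at which background compresses differences on this scale. AT1G50110, a branched-chain amino acid aminotransferase, had the highest flu response of the group at 1.82 ± 0.20, beside 2.03 ± 0.20 in WT. DFR (AT5G42800), the dihydroflavonol reductase of anthocyanin synthesis, overlapped between flu and WT at 3 h. As a description, mbs1-1 differed from WT in DFR at 3 h by -0.99, the RNAi line by -1.14 and 35S:MBS1 by -0.46. The other members were AT5G51310, an oxygenase of the iron and oxoglutarate type, AT5G61290, a flavin monooxygenase family member, AT2G37540, a short-chain dehydrogenase, and AT1G32780, an alcohol dehydrogenase-like protein. Their gaps between flu and WT at 3 h ran from -1.02 for AT5G51310 to -0.75 for AT2G37540.

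The regulators and cytoskeleton group had 8 members. TRY (AT5G53200) is a small MYB protein that blocks trichome formation, GIS (AT3G58070) a zinc finger that promotes it, AT3G12910 a NAC-domain protein, AT3G22550 an FLZ-type zinc finger protein and IDD16 (AT1G25250) a zinc finger of the INDETERMINATE family. AT3G23090 (WDL3) binds microtubules and ACT11 (AT3G12110) is an actin. All 8 rose in mbs1-1, 6 in the RNAi line and 6 in 35S:MBS1, where TRY and AT3G12910 did not pass in the last 2 lines. Among all probe sets 25.9%, 21.2% and 22% rose in mbs1-1, the RNAi line and 35S:MBS1.

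AT3G23090 read 7.17, 7.31 and 7.50 in flu at 3 h and 8.51, 8.53 and 9.19 in WT at 3 h. At 0 h the signals were 7.07, 7.04 and 7.13 in flu and 7.77, 7.40 and 7.61 in WT. Flu was below WT at both times with no overlap, with differences of -1.42 ± 0.17 at 3 h and -0.51 ± 0.17 at 0 h. The 9 MBS1-altered arrays at 3 h ran from 8.20 to 8.67 with a median of 8.36. AT1G07050 had the highest WT response of the 68, 22.1-fold, and 82% of it in flu on the log2 scale. Its signals were 7.14, 7.62 and 7.05 in flu and 8.25, 8.29 and 8.17 in WT at 3 h, and 3.54, 3.57 and 3.72 in flu and 3.71, 3.83 and 3.76 in WT at 0 h. The gap of -0.97 ± 0.19 at 3 h compares with 0 h levels that differed by -0.16 ± 0.19.

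TRY differed in pattern across lines. At 3 h it read 6.73, 7.17 and 5.55 in flu and 7.64, 7.82 and 7.27 in WT, and at 0 h 6.61, 7.04 and 7.57 in flu and 5.87, 6.37 and 5.85 in WT. The flu 0 h arrays were all above the WT 0 h arrays, and the third flu array at 3 h was below every WT array of either time. The 3 h minus 0 h difference of TRY was -0.59 ± 0.34 in flu, 1.99 ± 0.34 in mbs1-1, 0.00 ± 0.34 in the RNAi line, 0.38 ± 0.34 in 35S:MBS1 and 1.55 ± 0.34 in WT. For the RNAi line against mbs1-1 the difference of these responses was -1.99 ± 0.47 and did not pass after adjustment (limma adjusted p = 0.17). AT3G12910 read 4.34, 5.16 and 4.29 in flu and 6.92, 5.13 and 5.50 in WT at 3 h, and 4.32, 3.97 and 4.06 in flu and 5.13, 4.22 and 4.06 in WT at 0 h. Its WT signal at 3 h was highest in the first array, and it was the 1 gene of the 68 whose WT arrays at 3 h and 0 h overlapped.

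Among transporters of ions and nitrogen, AT4G13800 belongs to the NIPA-type magnesium transporters, AT5G62730 to the NRT1/PTR family of nitrate and peptide carriers, and CHX16 (AT1G64170) to the cation/proton exchangers. All 3 rose in each MBS1-altered line, where 25.9%, 21.2% and 22% of all probe sets rose in mbs1-1, the RNAi line and 35S:MBS1. AT4G13800 read 5.08, 5.57 and 4.44 in flu and 6.18, 5.79 and 6.69 in WT at 3 h, and 3.49, 3.74 and 3.89 in flu and 4.84, 4.45 and 3.79 in WT at 0 h. AT5G62730 read 3.71, 4.06 and 4.0 in flu and 4.44, 5.42 and 5.14 in WT at 3 h, and 3.28, 3.17 and 3.28 in flu and 3.73, 3.38 and 3.47 in WT at 0 h. CHX16 read 7.29, 7.18 and 7.87 in flu and 8.60, 8.66 and 7.98 in WT at 3 h, and 6.61, 5.80 and 6.0 in flu and 6.39, 6.19 and 6.62 in WT at 0 h. In each of the 3 genes flu was below WT at 3 h with no overlap, and its response was positive, from 0.68 for AT5G62730 to 1.32 for AT4G13800.

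Receptor-like and defence genes had 5 members, of which in the MBS1-altered lines 2 rose in mbs1-1, 1 in the RNAi line and 4 in 35S:MBS1, where 25.9%, 21.2% and 22% of all probe sets rose. In mbs1-1 and the RNAi line these counts are too near that background to be a result about the group. AT1G51850 and AT5G59670 are receptor kinases with leucine-rich repeats, AT1G53070 a lectin of the legume type and AT1G73620 a thaumatin-like protein. AT1G72920 read 7.51, 7.20 and 7.82 in flu and 9.50, 8.90 and 7.58 in WT at 3 h. At 0 h it read 7.69, 6.72 and 7.65 in flu and 6.61, 5.56 and 6.98 in WT. In this gene the WT mean at 3 h was above the means of flu, mbs1-1, the RNAi line and 35S:MBS1. A high WT signal at 3 h was part of the choice of genes. Flu was not below the MBS1-altered lines (0.42 ± 0.35). The third WT array at 3 h lay within the flu range and below the highest MBS1-altered array, at 7.62.

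AT5G59670 read 5.98, 4.38 and 4.53 in flu and 5.49, 7.20 and 5.32 in WT at 3 h, and 4.27, 4.13 and 4.38 in flu and 4.86, 4.13 and 4.29 in WT at 0 h. AT1G51850 read 8.29, 8.24 and 8.90 in flu and 9.44, 9.71 and 8.73 in WT at 3 h, and 7.28, 7.21 and 6.53 in flu and 7.12, 6.45 and 8.15 in WT at 0 h. Flu and WT overlapped at 3 h in both kinases. AT1G53070 read 8.01, 7.76 and 7.00 in flu and 8.73, 8.43 and 8.61 in WT at 3 h, and 7.01, 6.22 and 5.89 in flu and 7.69, 7.29 and 7.48 in WT at 0 h. This lectin was lower in flu at both times, with differences of -1.0 ± 0.25 at 3 h and -1.11 ± 0.25 at 0 h, and its flu response of 1.22 ± 0.25 stood beside 1.11 ± 0.25 in WT.

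No role group was given to 23 genes. AT5G20790 had the largest gap among them, with 7.90, 7.94 and 8.56 in flu and 9.16, 9.36 and 10.41 in WT at 3 h. At 0 h it had 5.40, 5.34 and 5.33 in flu and 7.83, 7.36 and 7.15 in WT, so flu was lower at both times without overlap. Over the 9 MBS1-altered arrays at 3 h the signal ran from 9.25 to 9.86 with a median of 9.74. AT5G20790 was the gene with the highest share of the WT response in flu, 127% on the log2 scale. AT5G62140 read 9.81, 10.04 and 9.96 in flu and 10.67, 10.85 and 10.79 in WT at 3 h, and 7.83, 7.95 and 8.40 in flu and 7.88, 8.10 and 7.42 in WT at 0 h. Its flu arrays at 3 h lay between both WT groups. The other 21 genes had gaps between flu and WT at 3 h of -1.33 for AT1G64405 to -0.77 for AT5G49410. AT2G04460, one of these, is annotated as a pseudogene by RefSeq. Of the 23, 20 rose in mbs1-1, 19 in the RNAi line and 23 in 35S:MBS1, beside 25.9%, 21.2% and 22% of all probe sets.

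The next question was whether flu already differed before high light. The comparison of flu at 0 h with the mean of the 3 MBS1-altered lines at 0 h used no array that chose the genes. A gene lower in flu at both times passes the flu threshold more easily, so the choice still shapes the counts below. With limma's test, 6 of the 68 were lower in flu, against 0.739% of all probe sets, and 2 were higher, against 0.765%. The remaining 60 did not pass. The median difference over the 68 was -0.11, beside -0.01 over all probe sets. At an unadjusted p under 0.05, 23 passed, against 12.5%. Of the calls over all probe sets 50.9% were higher, a share that became 66.2% after centring on array medians.

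AT5G20790 had the largest difference at -2.09 ± 0.39 (adjusted p = 0.00356). Its 3 flu arrays at 0 h read 5.40, 5.34 and 5.33, and the 9 MBS1-altered arrays at 0 h ran from 5.76 to 8.42 with a median of 7.84. The subtilase AT5G45650 differed by -1.01 ± 0.15 (adjusted p = 0.000269), with MBS1-altered arrays that ran from 7.21 to 7.92 with a median of 7.76. The starch-binding AT3G55760 read 7.06, 6.71 and 7.36 in flu at 0 h, where the MBS1-altered arrays ran from 7.54 to 8.27 with a median of 7.96, a difference of -0.91 ± 0.15 (adjusted p = 0.00147). AT5G45650 and AT3G55760 passed in every setting tried, while AT5G20790 did not pass with the compared arrays alone (adjusted p = 0.107).

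The other calls rested on less. In the lower direction AT1G73600 differed by -1.18 ± 0.24 (adjusted p = 0.0101), AT1G53070 by -0.83 ± 0.21 (adjusted p = 0.0384) and AT5G51310 by -0.73 ± 0.17 (adjusted p = 0.0219). TRY was higher by 1.17 ± 0.27 (adjusted p = 0.0266) and AT5G62140 by 0.52 ± 0.13 (adjusted p = 0.045). Without flu 0 h replicate 2 the 8 calls became 4, without flu 0 h replicate 3 they became 3, and with the fit limited to the arrays compared 3. TRY was lost when either of those flu arrays was left out. AT5G62140 lost its call in 12 alternative settings, the replicate block among them (adjusted p up to 0.338), and AT1G53070 in 9 (up to 0.293), most of them omissions of 1 array. AT5G51310 lost its call in 3 settings and AT1G73600 in 2. As a description, flu at 0 h lay below WT at 0 h without overlap in 15 of the 68 genes, against 7.97% of all probe sets, and above it in 2, against 3.44%.

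**Figure D4:**
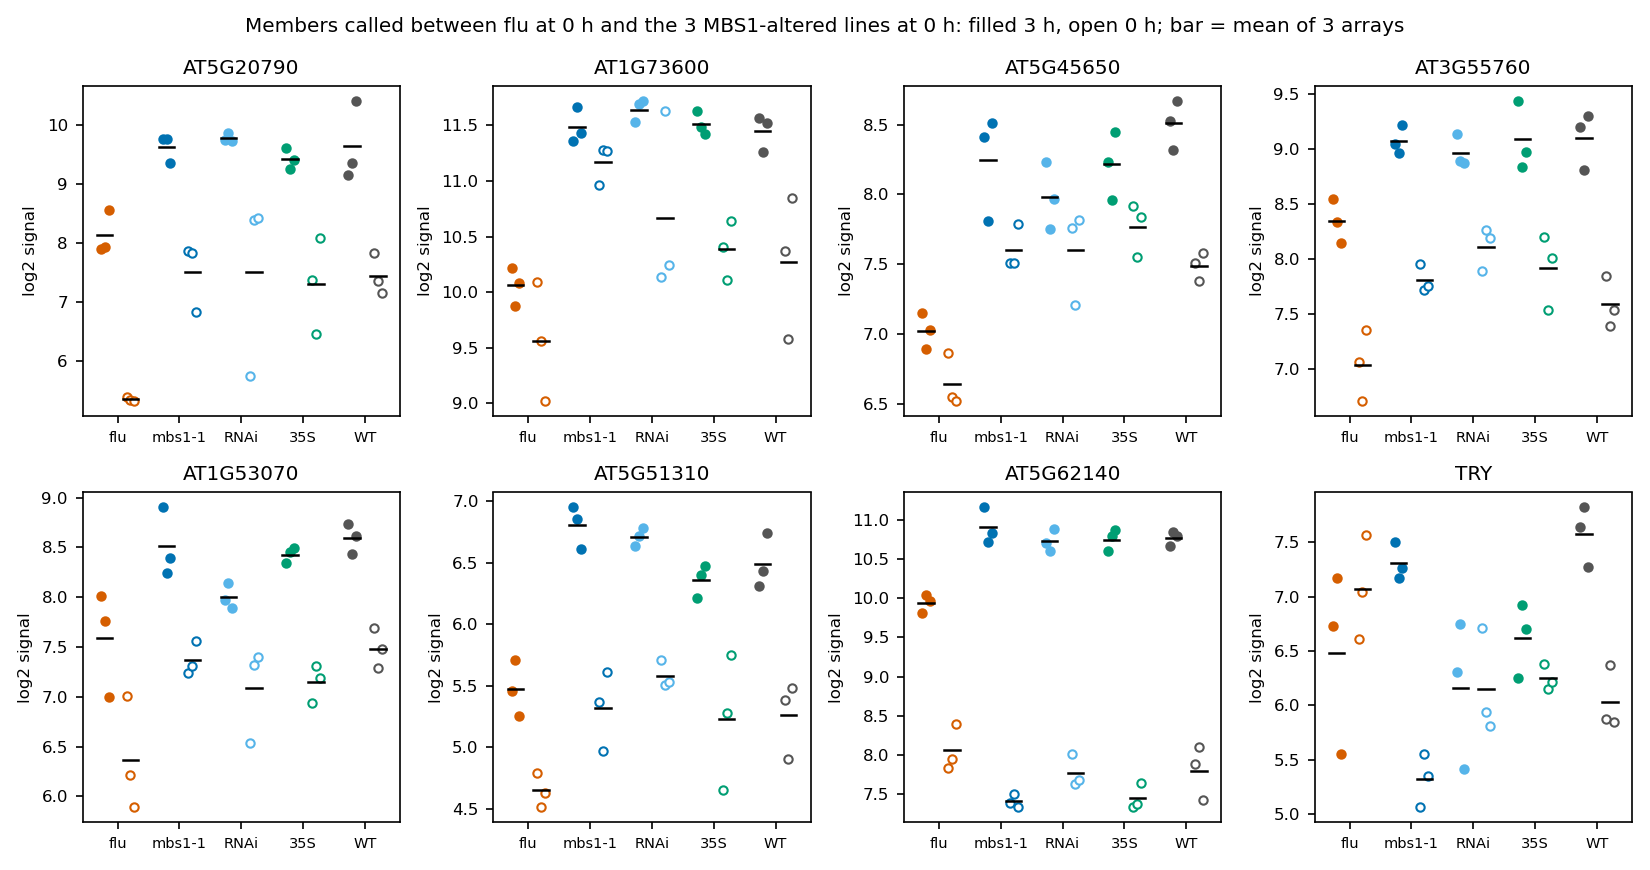
Log2 signal in each array for the 8 genes called between flu and the MBS1-altered lines at 0 h, by line, with 3 h filled, 0 h open and a bar at the mean of 3 arrays. By their mean, the open flu points are the lowest open group in the first 6 panels and the highest in the panels of AT5G62140 and TRY. Each panel has its own axis, which does not start at 0.

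Lists of pathways near these genes were mostly out of reach of the matching used here. By it, 12 of their 114 genes had a probe set with a single gene symbol, and probe sets with several symbols were not searched. APL3 and DFR among them belong to the 68. The other 10 are what the rule left behind on the arrays it used, so their values are a description, and nothing is read from the shares beside them. In WT 8 of the 10 were higher at 3 h than at 0 h by limma's threshold (21.1% of all probe sets), and between flu and WT at 3 h 3 of the 10 were lower (9.65% of all probe sets). The 4 ribosome assembly genes, NOP58B, BRX1, PES and EBP2, were higher in WT by 1.60, 1.89, 1.23 and 1.32, and flu differed from WT at 3 h by 0.02, -0.18, -0.04 and 0.00. BIC1, an inhibitor of the blue light receptor, was higher in WT by 4.47 ± 0.15 and by 4.95 in flu, with 0.38 ± 0.15 between flu and WT at 3 h.

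The 3 listed genes counted as lower in flu at 3 h were CHIL, LCYB and SBE2.2. CHIL, a helper protein of flavonoid synthesis, lay -0.72 ± 0.21 from WT at 3 h, although its response of 4.28 in flu stood beside 3.89 in WT. SBE2.2, a starch branching enzyme, lay -0.58 ± 0.13 from WT, with a response of 0.20 in flu and 0.86 in WT. LCYB, the lycopene beta-cyclase of carotenoid synthesis, lay -0.71 ± 0.11 from WT and differed between 3 h and 0 h by 0.08 in WT. APS3 and SIR of sulfate assimilation lay -0.24 and -0.05 from WT in flu at 3 h.

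The thresholds cut through a continuous range. Just inside the flu threshold stood IDD16 at -0.758, AT3G55760 at -0.756 and AT2G37540 at -0.75, and just outside AT1G51080 at -0.749, THIC at -0.747 and AT2G44370 at -0.741. On the WT side AT3G44970 at 1.002, AT1G32780 at 1.006 and AT4G16563 at 1.01 were inside, and AT2G44640 at 0.948, AT3G49930 at 0.945 and AT1G67470 at 0.94 outside. In the genome, the closest members in RefSeq gene order were AT1G73600 and AT1G73620 with 3 genes between them, and DFR and AT5G42860 with 7. At 0 h, 21 of the genes in flu and 18 in WT had a mean under 5, where a low signal leaves a fold change uncertain.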

How the data were processed

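The authors deposited log2 signal values for 30 arrays. Per the submitters' processing notes they came from RMA, run through affy. Neither the versions nor the set of arrays normalized together is given in the sources used here. RNA came from a NucleoSpin kit and was labelled with a NuGEN biotin module, per the labels' protocols. Genes were named from the platform annotation, and 64 control probe sets were left out. The deposited values were used as they stand, since a second background correction or scaling would change them.

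In limma 3.58.1 under R 4.3.3, 1 linear model held the means of the 10 groups over the 30 arrays, with Benjamini-Hochberg adjustment over 22746 probe sets and an adjusted p under 0.05 as the threshold. Its steps were tested on simulated data. The 6 comparisons tested on the 68 genes took their means from no array of WT or of flu at 3 h. Their variance was estimated over all 30 arrays, those included. After seeing the data, 3 differences of responses were added. Counts of listed genes past the threshold in WT, and between flu and WT at 3 h, used the arrays that chose the 68 and are descriptions. Tables and plots used Python 3.11.15, pandas 2.3.3 and matplotlib 3.10.9. The 68 genes, the role groups and the gene lists were chosen with earlier results of these data known.

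Genes were named by rule: the 8 with the lowest flu minus WT at 3 h, the 6 with the highest WT response, up to 4 per role group, up to 5 of the largest called changes per tested comparison, and 3 on each side of both thresholds. Other names were chosen with their values in view. The 9 MBS1-altered arrays per time are given by range and median, and each array is drawn for the genes plotted. Same-numbered arrays of 35S:MBS1 deviated together, at correlations of 0.373, 0.114 and 0.141 between 3 h and 0 h. Whether the numbers pair them is not given in the labels, and the main fit had no block. In the other comparisons at least 1 correlation was under 0.1. The alternatives were a replicate block, the compared arrays alone, a mean of at least 5, quantile normalization, centring on the median, a trended and robust prior, only probe sets with exactly 1 gene, and omission of single arrays. A block within 35S:MBS1 alone and the omission of both brighter arrays together were added after seeing the data. The promoter motifs planned for a search were not analysed here.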

Additional observations from a re-analysis of the deposited data

Results flagged for a closer look

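AT4G16563, the aspartyl protease, was the 1 gene whose 3 flu arrays moved one way and whose 3 WT arrays moved the opposite way, with no overlap between the times in either line. The 3 h minus 0 h difference was -0.54 in flu and 1.01 in WT. The difference between these responses was not tested, since WT and flu at 3 h chose the gene.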

How the results depend on the processing

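No member called in a tested comparison changed sign under any alternative run, while of those not called 5 of 13 did for the response of the RNAi line, 23 of 60 for flu at 0 h and 28 of 68 in each comparison of lines at 3 h. The 3 differences of responses were not rerun. The counts of members that rose ran, as arrays were left out one at a time, from 53 to 60 in mbs1-1, 54 to 57 in the RNAi line and 61 to 64 in 35S:MBS1, and stayed at 0 to 0 in both comparisons of MBS1-altered lines at 3 h. Without both brighter arrays 53 rose in mbs1-1, 56 in the RNAi line and 65 in 35S:MBS1. Called under every setting were 52 of the 59 in mbs1-1, 53 of the 55 in the RNAi line, 60 of the 65 in 35S:MBS1 and 2 of the 8 between flu and the MBS1-altered lines at 0 h. Those 8 became 3 with only the arrays compared, and 3 to 10 as arrays were left out, where the lowest counts came without flu 0 h replicate 3 (3) and replicate 2 (4). The cause was not tested. With a replicate block the counts were 59 in mbs1-1, 57 in the RNAi line, 65 in 35S:MBS1 (66 within its own arrays), 0 and 0 between lines at 3 h, and 7 for flu at 0 h. The block changed no count by over 1.5 times. A flu threshold of -1 left 35 genes and a WT threshold of 1.5 left 38, as stricter cuts must. As arrays were left out the number chosen ran from 58 to 96, and 29 genes were chosen each time. Quantile normalization gave 70 genes with 67 shared, and centring on the median 65 with 64 shared. The median response of all probe sets in mbs1-1 moved to -0.01 after quantile normalization, beside 0.10 as deposited. Of the 10 listed genes, as a description, 7 to 8 were past the threshold in WT and 2 to 4 between flu and WT. Dim signals, with a mean under 5, limit the folds of the genes they concern.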
